A study of Mus musculus with 20 samples.

Results

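Genes that carry the insulin and glucagon signals in the liver were followed across fed and fasted mice with and without hepatic Mcl1. They were Insr, Irs1, Irs2, Foxo1, Foxo3, Pik3r1, Akt2 and Gcgr, that is 8 of the 19505 genes named on the array. Each was found by its symbol in the platform annotation, and each had 1 probe set, so no choice between probe sets was needed. The study hybridised liver RNA of 20 mice, each to its own Affymetrix array, in 4 groups of 5 mice that the labels call biological replicates.

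The mice carried floxed alleles, Mcl1(F/F), and the labels give AAV-LP1-Cre, a viral vector that carries the Cre recombinase under a liver promoter, as the means of removing MCL-1, an anti-apoptotic BCL2 family protein, from the liver. Livers labelled Mcl1(L-/-) are called Mcl1KO here and the others WT. The labels used here do not state the treatment of the WT mice, so an effect of the vector or the recombinase and an effect of losing MCL-1 cannot be told apart. The fed groups had free access to food. The fasted groups had none for 48 hours and were housed singly on wire floors, so the fasting contrast also includes the change of housing. All groups had water. The labels used here name no age, sex or strain background.

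Insulin binds its receptor on the hepatocyte, and the activated receptor phosphorylates the adaptor proteins IRS1 and IRS2, which recruit phosphoinositide 3-kinase. The lipid product of that kinase activates AKT, mainly the AKT2 form in liver, and AKT phosphorylates FOXO transcription factors, which then leave the nucleus and stop driving genes of glucose output. Glucagon, the hormone of the fasted state, acts through its own receptor, a G protein and cyclic AMP on protein kinase A and the transcription factor CREB, and among the genes that this route is known to raise are those of gluconeogenesis. Most of this control acts on protein phosphorylation, which an expression array does not measure.

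The Mcl1 signal separated the genotypes. Fed livers had a log2 signal of 7.43 ± 0.15 (SD, n = 5) in WT and 6.09 ± 0.16 in Mcl1KO, and fasted livers had 7.28 ± 0.09 in WT and 6.14 ± 0.25 in Mcl1KO, with every Mcl1KO array below every WT array. Arrays of 1 group correlated at 0.979 to 0.99 and arrays of different groups at 0.958 to 0.989 over all probe sets. Fed WT replicates 1 and 2 stood apart from the other fed WT livers in Irs2 and a few related genes, and fasted Mcl1KO replicates 3 and 4 stood apart from the rest of their group in more genes, so member results whose direction or call changes without either pair are given both ways here or in the closing part. The 10 hepatocyte markers (Alb, Ttr, Hnf4a and others) had a mean log2 signal of 11.33 to 11.39 on fed and 11.4 to 11.47 on fasted arrays. Fasting called 1 of them in WT (10%) and 3 in Mcl1KO livers (30%), against 6.79% and 14.4% of all probe sets. The mean of 10 Kupffer cell markers, genes of the resident liver macrophage, ran from 5.33 to 5.8 on fed and from 4.65 to 4.98 on fasted WT arrays, and from 5.45 to 5.77 on fed and from 5.06 to 5.78 on fasted Mcl1KO arrays. Of these markers limma called 4 lower after fasting in WT (40%), among them Cd5l (-1.50), Vsig4 (-0.94) and Clec4f (-0.73), and 2 lower in Mcl1KO (20%). Of all probe sets 3.68% and 6.25% were called lower. Between fasted genotypes all 10 were higher in Mcl1KO, with a median of 0.55. Of these 3 were called (30%, against 4.99% of all probe sets), Vsig4 (1.22), C1qa (0.70) and Clec4f (0.56). Vsig4 was also called for the interaction (1.26). Of 8 stellate cell markers 4 were called for fasting in Mcl1KO livers (50%, against 14.4% of all probe sets), Dcn (0.82) and Rgs5 (0.91) higher and Col3a1 (-1.70) and Reln (-0.56) lower. All 8 endothelial markers were positive for the interaction (median 0.56, 4 at an unadjusted p under 0.05, 0 called). Fasting called 1 of them higher and 1 lower in WT (25%) and 1 higher in Mcl1KO (12.5%). Of 5 neutrophil markers 1 was called higher for fasting in Mcl1KO and 1 between fasted genotypes (20% each). The part of these cells in the fasting and genotype results below was not tested. In whole liver, fewer cells of a type and less RNA per cell cannot be told apart.

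Among the 8 genes, Irs1 and Pik3r1 were called between fed and fasted Mcl1KO livers, both lower after fasting, and no member was called in the other pairwise comparisons. The RefSeq sequences of the 250 bases before their annotated starts, from the assembly GRCm38.p6, are shown because limma called both of these members in the same direction. All 3 lie on the minus strand and are written 5′ to 3′ towards the gene, and capitals mark a match to the core of the cyclic AMP response element, the motif to which CREB binds.
Irs1 (chr1:82291440-82291689): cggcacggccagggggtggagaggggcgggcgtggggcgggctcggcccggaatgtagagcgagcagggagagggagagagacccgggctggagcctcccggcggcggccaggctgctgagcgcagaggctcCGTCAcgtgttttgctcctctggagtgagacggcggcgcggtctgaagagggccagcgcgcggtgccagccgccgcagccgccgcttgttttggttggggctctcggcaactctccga
Pik3r1, first start (chr13:101768218-101768467): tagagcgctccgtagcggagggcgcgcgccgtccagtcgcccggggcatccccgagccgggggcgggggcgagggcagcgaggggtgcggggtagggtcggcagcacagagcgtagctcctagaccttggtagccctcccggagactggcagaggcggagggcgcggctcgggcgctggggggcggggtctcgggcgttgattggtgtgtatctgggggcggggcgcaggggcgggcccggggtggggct
Pik3r1, internal start (chr13:101692631-101692880): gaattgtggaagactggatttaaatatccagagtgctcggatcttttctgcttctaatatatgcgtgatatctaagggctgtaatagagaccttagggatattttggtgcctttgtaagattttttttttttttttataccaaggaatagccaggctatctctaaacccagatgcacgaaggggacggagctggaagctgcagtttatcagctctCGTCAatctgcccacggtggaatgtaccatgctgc
The motif searched was TGACG, or CGTCA on the other strand. The Irs1 window held 1 match, which began 118 bases before the start. The window before the internal start of Pik3r1 held 1 match, 35 bases before the start, and the window before its first start held none. Promoter windows were found for 7 of the 8 members, 11 windows in all, and 5 of these 11 held this core (Akt2, in 2 windows, Foxo3, Irs1 and Pik3r1), against 17.8% of all 32851 promoter windows of the same length. Of forkhead motifs only the core GTAAACA, or TGTTTAC on the other strand, was searched, and other forms were not. That core was in 0 of the 11 member windows and in 3.17% of all windows. The Irs1 window and that before the first Pik3r1 start had a GC content of 72.4% and 76.4%, against a median of 52.4% over all windows, and the window before the internal Pik3r1 start had 42.4%. Such matches are descriptions of the letters and say nothing of binding in these livers.

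In WT livers 0 of the 8 members passed limma's test for fasting (adjusted p under 0.05 over all 22206 probe sets), where 6.79% of all probe sets were called, and 2 members had an unadjusted p under 0.05. In Mcl1KO livers 2 of 8, or 25%, were called, both lower, against 14.4% of all probe sets called in either direction and 6.25% called lower. Deletion of Mcl1 gave 0 of 8 in fed livers, where 0.036% of all probe sets were called and 0 members had an unadjusted p under 0.05. It gave 0 of 8 in fasted livers, where 4.99% were called and 2 members had an unadjusted p under 0.05. The interaction, which is the fasting difference in Mcl1KO minus that in WT, gave 0 of 8 against 0.135% of all probe sets, with 1 member at an unadjusted p under 0.05. The median log2 difference of the members was -0.04 for fasting in WT, -0.10 for fasting in Mcl1KO, 0.05 for genotype in fed and -0.18 for genotype in fasted livers, and -0.15 for the interaction. Over all probe sets these medians were 0.015, -0.002, -0.002, -0.017 and -0.01. For no member did all 5 arrays of 1 group lie beyond all 5 of the other, while 7.36%, 10.2%, 1.57% and 3.9% of all probe sets did so in the same 4 comparisons.

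**Figure D1:**
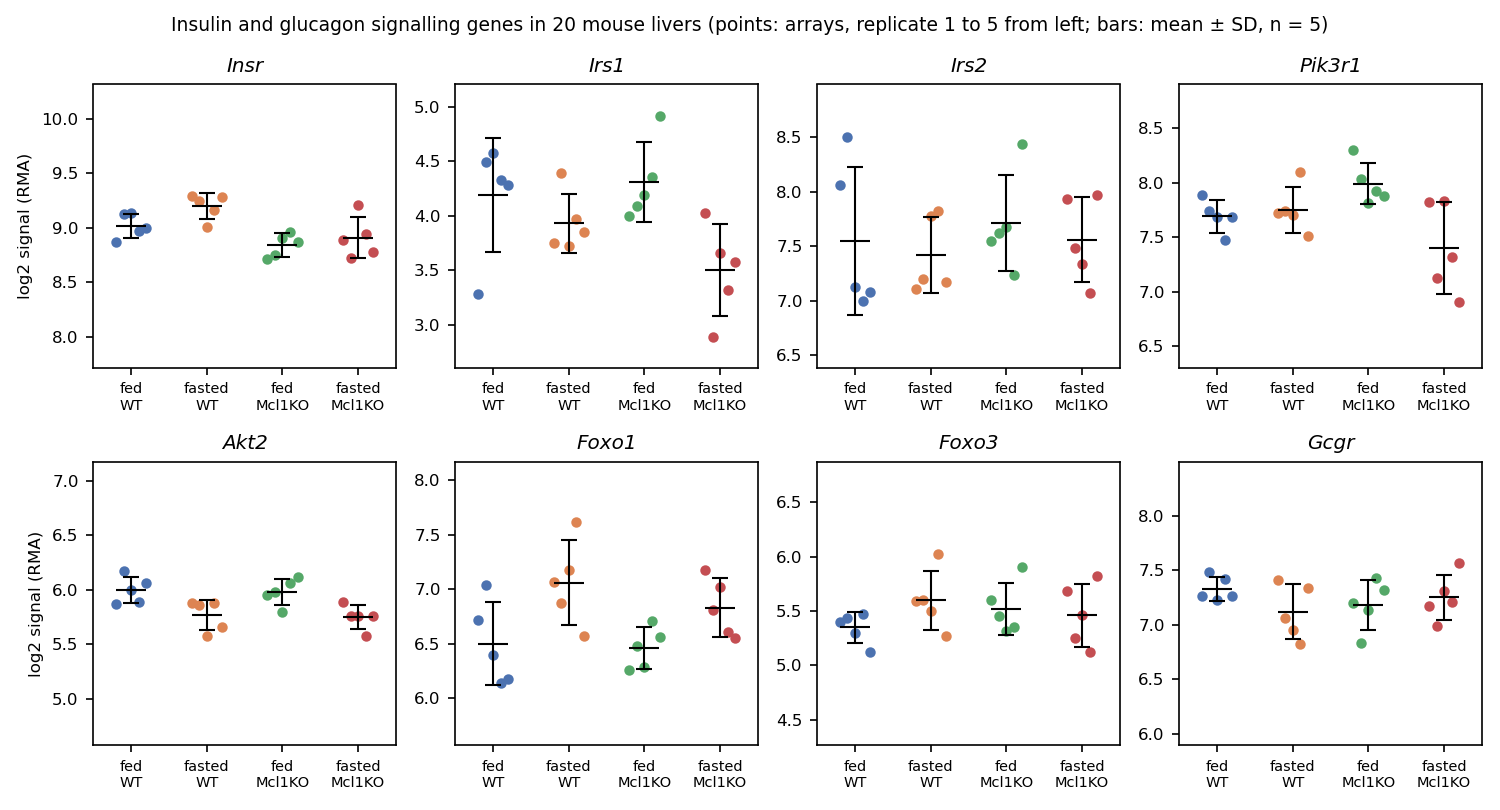
Log2 signal (vertical axes, each spanning the same number of log2 units) of the 8 members in each liver, by group, with points as mice in replicate order and bars as mean ± SD (n = 5 per group). Fed and fasted livers of each genotype, and the genotypes within each feeding state, overlap in every panel, and the lowest fasted Mcl1KO values of Irs1 (2.89) and Pik3r1 (6.9) lie below the other groups.

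Insr, the insulin receptor, was among the brightest genes of the array, brighter than 97.3% of all probe sets. Its log2 signals in replicates 1 to 5 were 8.87, 9.13, 9.14, 8.97 and 9.0 in fed WT livers and 9.29, 9.25, 9.01, 9.16 and 9.28 in fasted WT livers. They were 8.71, 8.75, 8.91, 8.96 and 8.87 in fed Mcl1KO and 8.89, 8.72, 9.21, 8.94 and 8.78 in fasted Mcl1KO livers. The order of the means was fasted WT, fed WT, fasted Mcl1KO and fed Mcl1KO, and each group overlapped its neighbour in that order. Fasting gave a log2 difference of 0.17 (SE 0.10, adjusted p = 0.411) in WT and 0.07 (SE 0.10, adjusted p = 0.774) in Mcl1KO livers. In fasted livers the receptor's signal in Mcl1KO differed from WT by -0.29 on the log2 scale (SE 0.10, 95% interval -0.50 to -0.08, adjusted p = 0.111). Fasted Mcl1KO replicate 3, at 9.21, lay within the fasted WT range, and the other 4 fasted Mcl1KO arrays lay below all fasted WT arrays. Without it the difference was -0.37 and passed the threshold (adjusted p = 0.0254), and without fasted Mcl1KO replicates 3 and 4 it was -0.40 (adjusted p = 0.0214). In fed livers the same difference was -0.18 (SE 0.10, adjusted p = 0.861).

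Irs1, which encodes an adaptor of the insulin receptor, was the dimmest member, brighter than 58.3% of all probe sets. In fed WT livers its log2 signals were 3.28, 4.49, 4.58, 4.33 and 4.28, and in fasted WT livers 3.75, 4.39, 3.72, 3.97 and 3.85. In fed Mcl1KO livers they were 4.0, 4.09, 4.19, 4.36 and 4.92, and in fasted Mcl1KO livers 4.03, 2.89, 3.66, 3.32 and 3.58. In Mcl1KO livers 4 of the 5 fasted values lay below every fed value, and replicate 1 alone overlapped the fed group. Irs1 fell with fasting in Mcl1KO livers, with a log2 difference of -0.82 (SE 0.23, 95% interval -1.29 to -0.35, adjusted p = 0.0143), to 56.8% of the fed level. The difference was -0.67 without fed Mcl1KO replicate 5, the highest fed array (adjusted p = 0.0561), and -0.67 without fasted Mcl1KO replicate 2, the lowest fasted one (adjusted p = 0.0573), so the call was lost without either array. In WT livers the difference was -0.26 (SE 0.23, adjusted p = 0.647), with fed WT replicate 1 below all fasted WT arrays, and -0.46 without fed WT replicates 1 and 2 (adjusted p = 0.317). The difference between these 2 fasting effects was -0.56 (SE 0.32, adjusted p = 0.532), or -0.35 without that pair (adjusted p = 0.731), so a different response of the genotypes was not shown.

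Irs2, the adaptor gene that FOXO and CREB are known to raise in liver, was brighter than 92.6% of probe sets and had the widest spread within groups of the 8 members (pooled SD 0.48). In fed WT livers it stood at 8.06 and 8.50 in replicates 1 and 2 and at 7.13, 7.0 and 7.08 in replicates 3 to 5. In fasted WT livers it was 7.11, 7.20, 7.78, 7.82 and 7.17. In Mcl1KO livers it was 7.55, 7.62, 7.68, 7.24 and 8.44 when fed and 7.93, 7.48, 7.34, 7.07 and 7.97 when fasted. The highest values of the series therefore came from 2 fed WT livers and 1 fed Mcl1KO liver, and every fasted value lay between 7.07 and 7.97. Fasting gave -0.14 in WT (SE 0.27, 95% interval -0.69 to 0.41, adjusted p = 0.87) and -0.15 in Mcl1KO livers (SE 0.27, 95% interval -0.70 to 0.40, adjusted p = 0.822). Without fed WT replicates 1 and 2 the WT difference turned to 0.35 (adjusted p = 0.549). Genotype gave 0.15 in fed (adjusted p = 0.979) and 0.14 in fasted livers (adjusted p = 0.846). Without fed WT replicates 1 and 2 the fed genotype difference was 0.64 (SE 0.24, adjusted p = 0.666) and the interaction moved from -0.01 to -0.49 (adjusted p = 0.622). Without fasted Mcl1KO replicates 3 and 4 the fasted genotype difference was 0.38 (adjusted p = 0.551) and the interaction 0.22 (adjusted p = 0.876).

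Some genes of both routes split the fed WT group in the same way and others did not. Igfbp1, a FOXO target that encodes an IGF binding protein, was at 9.33 and 9.62 in fed WT replicates 1 and 2 and at 6.93 to 7.36 in the other 3 fed WT livers. Sik1, a kinase gene that cyclic AMP induces, was at 7.50 and 7.44 against 5.94 to 5.96, and Nr4a1, an immediate-early nuclear receptor, at 6.15 and 7.67 against 4.53 to 4.94. These 3 genes were thus high in the fed WT livers with high Irs2. Angptl8, a gene that insulin raises, went the other way, at 7.03 and 7.08 against 8.44 to 8.80. Tat, which encodes an amino acid catabolic enzyme induced by glucagon, was at 11.42 in both against 10.99 to 11.12, and G6pc, the glucose-6-phosphatase gene, at 10.81 and 10.44 against 9.71 to 10.09. The coactivator gene Ppargc1a was also higher in the pair, at 6.18 and 6.82 against 5.44 to 5.88, as were Cited2, Grb14 and Insig2. In some other genes of these routes the pair was not set apart. Fos, an immediate-early gene, was at 4.9 and 3.3 against 3.41 to 4.35, Dusp1, a phosphatase gene, at 9.64 and 8.76 against 8.84 to 9.27, and Pck1 at 11.02 and 10.92 against 10.74 to 11.01. Id1, Gadd45a and Per1 overlapped likewise. Other genes that insulin raises did not split as Angptl8 did. Fasn was at 9.39 and 8.4 against 8.85 to 9.45, and Acly at 9.6 and 8.8 against 9 to 9.41. Elovl6 was at 9.11 and 8.92 against 8.86 to 9.3, and Acaca and Pklr also overlapped. Over the whole array 9 probe sets were higher and 3 lower in this pair by more than 1 log2 unit beyond all 3 other fed WT livers. That total of 12 is not particular to the pair, since fasted Mcl1KO replicates 2 and 5 also had 12, fasted WT replicates 3 and 4 had 10, and fasted Mcl1KO replicates 3 and 4 had 66. Fasted WT replicates 3 and 4 were also the highest of their group in Irs2 (7.78 and 7.82 against 7.11 to 7.20), Igfbp1 (9.67 and 10.31 against 8.58 to 9.15) and Nr4a1 (5.55 and 5.65 against 4.54 to 4.74). In Sik1 they overlapped the rest of the group (6.23 and 6.05 against 5.33 to 6.09). The fed Mcl1KO liver with the highest Irs2, replicate 5, was also the highest of its group in Sik1 (7.73) and Nr4a1 (8.33), but not in Igfbp1 (9.82, against 9.94 in replicate 2). The fasted Mcl1KO liver with the highest Irs2, replicate 5 (7.97), had the highest Igfbp1 of its group (11.1). However, it had the lowest Nr4a1 (4.34) and a Sik1 of 5.84, near the lowest of 5.83. These arrays were picked after their values were seen, and the labels give nothing that sets them apart.

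**Figure D2:**
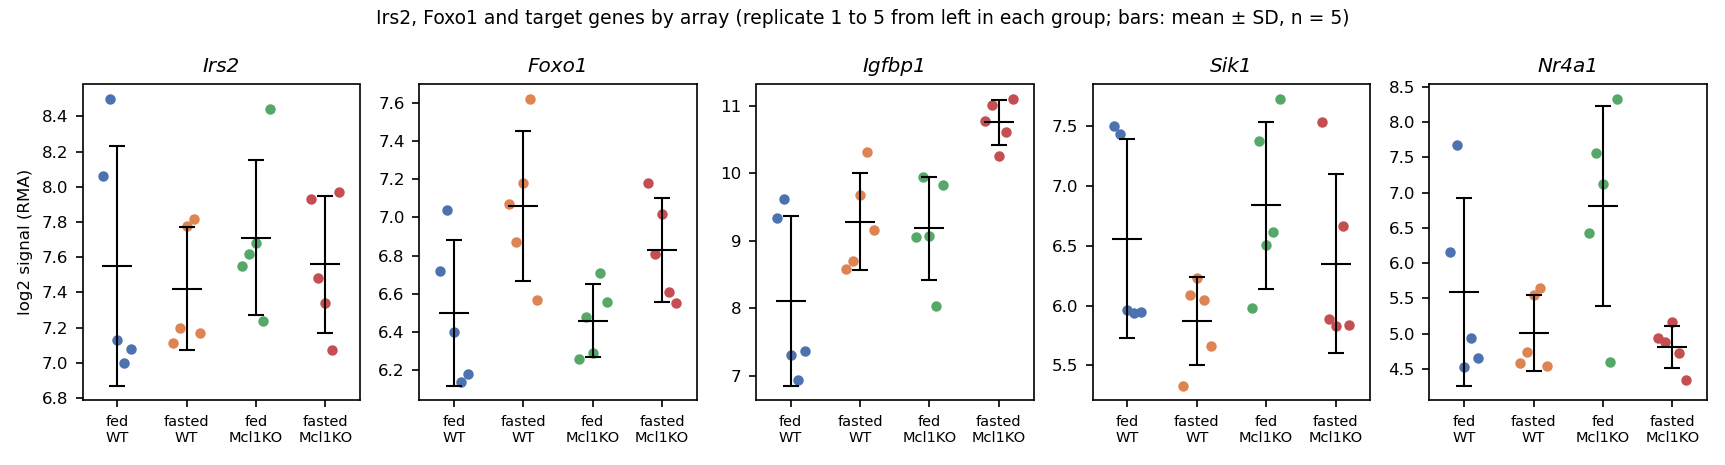
Log2 signal (vertical axes) of Irs2, Foxo1, Igfbp1, Sik1 and Nr4a1 in the 5 livers of each group, with points in replicate order from the left and bars as mean ± SD (n = 5). In each of the 5 panels fed WT replicates 1 and 2 lie above the other fed WT livers, at 8.06 and 8.50 against 7.13 and below for Irs2.

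Pik3r1 encodes the main regulatory subunit of phosphoinositide 3-kinase, which docks the enzyme on the IRS adaptors. Its log2 signals were 7.89, 7.74, 7.68, 7.47 and 7.68 in fed WT and 7.72, 7.74, 7.70, 8.10 and 7.51 in fasted WT livers. They were 8.30, 8.03, 7.81, 7.92 and 7.88 in fed Mcl1KO and 7.82, 7.12, 7.83, 7.32 and 6.90 in fasted Mcl1KO livers. Replicates 2, 4 and 5 of the fasted Mcl1KO group lay below every array of the other groups, while replicates 1 and 3 lay at 7.82 and 7.83, just above the lowest fed Mcl1KO value of 7.81. Pik3r1 fell with fasting in Mcl1KO livers, with a log2 difference of -0.59 (SE 0.16, 95% interval -0.92 to -0.27, adjusted p = 0.011), to 66.4% of the fed level, and the difference stayed between -0.70 and -0.47 when single arrays were left out. Tested against a minimum fold of 1.2 (limma's treat), neither Pik3r1 (adjusted p = 0.274) nor Irs1 (adjusted p = 0.151) was called. The fasted Mcl1KO livers varied more (SD 0.42) than the other groups (0.15 to 0.21), and since the model assumes 1 spread for all groups its SE may be too small here. In WT livers the difference was 0.06 (SE 0.16, adjusted p = 0.909). The interaction was -0.65 (SE 0.22, 95% interval -1.11 to -0.19), the largest interaction by size among the 8 members. Its unadjusted p of 0.00753 did not pass after adjustment (adjusted p = 0.235). Mcl1KO minus WT was 0.30 in fed livers (SE 0.16, adjusted p = 0.826) and -0.36 in fasted livers (SE 0.16, adjusted p = 0.221).

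Akt2, the main insulin-responsive AKT kinase of liver, varied least within groups (pooled SD 0.12). Its log2 signals were 5.87, 6.17, 6.0, 5.89 and 6.06 in fed WT and 5.88, 5.86, 5.58, 5.88 and 5.66 in fasted WT livers. They were 5.95, 5.98, 5.80, 6.06 and 6.12 in fed Mcl1KO and 5.89, 5.76, 5.76, 5.58 and 5.76 in fasted Mcl1KO livers. In each genotype a single fed array, replicate 1 in WT and replicate 3 in Mcl1KO, lay within the range of the fasted arrays. Fasting gave nearly the same difference in both genotypes, -0.23 in WT (SE 0.10, adjusted p = 0.212) and -0.24 in Mcl1KO livers (SE 0.10, adjusted p = 0.122), and neither passed. Genotype differences were -0.01 in fed (SE 0.10, 95% interval -0.22 to 0.19, adjusted p = 0.997) and -0.02 in fasted livers (SE 0.10, 95% interval -0.23 to 0.18, adjusted p = 0.935).

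Foxo1, the FOXO factor best known for driving gluconeogenic genes in hepatocytes, had log2 signals of 6.72, 7.04, 6.40, 6.14 and 6.18 in fed WT and 7.07, 6.87, 7.18, 7.62 and 6.57 in fasted WT livers. In Mcl1KO livers it was 6.26, 6.48, 6.29, 6.71 and 6.56 when fed and 7.18, 6.81, 7.02, 6.61 and 6.55 when fasted. The fed WT livers with high Irs2, replicates 1 and 2, were also the 2 with the highest fed Foxo1 and overlapped the fasted group. Fasting gave 0.57 in WT (SE 0.18, 95% interval 0.19 to 0.94, adjusted p = 0.065) and 0.37 in Mcl1KO livers (SE 0.18, adjusted p = 0.212). Without fed WT replicates 1 and 2 the WT difference was 0.82 and passed (adjusted p = 0.0104). It also passed without fed WT replicate 2 alone (0.70, adjusted p = 0.019) and without fasted WT replicate 5 alone (0.69, adjusted p = 0.0238), with trend and robust moderation (adjusted p = 0.0434) and with the filter on dim probe sets (adjusted p = 0.0442). The interaction was -0.19 (SE 0.26, adjusted p = 0.85), or -0.45 without fed WT replicates 1 and 2 (adjusted p = 0.555).

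Foxo3, another FOXO factor, was at 5.35 ± 0.14 (SD, n = 5) in fed and 5.60 ± 0.27 in fasted WT livers, and at 5.52 ± 0.24 in fed and 5.46 ± 0.29 in fasted Mcl1KO livers, with all 4 groups overlapping. The fasting difference was 0.25 in WT (SE 0.15, adjusted p = 0.408) and -0.06 in Mcl1KO livers (SE 0.15, adjusted p = 0.882). Gcgr, the glucagon receptor, was at 7.33 ± 0.11 in fed and 7.12 ± 0.25 in fasted WT livers, and at 7.18 ± 0.23 in fed and 7.25 ± 0.21 in fasted Mcl1KO livers. Its fasting difference was -0.21 in WT (SE 0.13, 95% interval -0.48 to 0.06, adjusted p = 0.448) and 0.07 in Mcl1KO livers (SE 0.13, 95% interval -0.20 to 0.34, adjusted p = 0.839). For both genes the neighbours in the order of group means did not differ beyond their spread.

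Averaged over both genotypes, a contrast added after the values were seen, fasting gave 3 calls among the 8 members against 16.7% of all probe sets (8.96% higher and 7.77% lower). Irs1 was lower (-0.54, SE 0.16, adjusted p = 0.0206) and Akt2 was lower (-0.23, SE 0.07, adjusted p = 0.0207), while Foxo1 was higher (0.47, SE 0.13, adjusted p = 0.0116). None of the 3 passed against a minimum fold of 1.2, and the Akt2 call did not hold with trend and robust moderation (adjusted p = 0.0535) or without fasted Mcl1KO replicates 3 and 4 (-0.21, adjusted p = 0.0624). Insr (0.12, SE 0.07, adjusted p = 0.315) and Pik3r1 (-0.26, SE 0.11, adjusted p = 0.12) did not pass. Pik3r1 did pass without fasted Mcl1KO replicate 1 (-0.32, adjusted p = 0.0472) and without fasted Mcl1KO replicate 3 (-0.32, adjusted p = 0.0408).

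**Figure D3:**
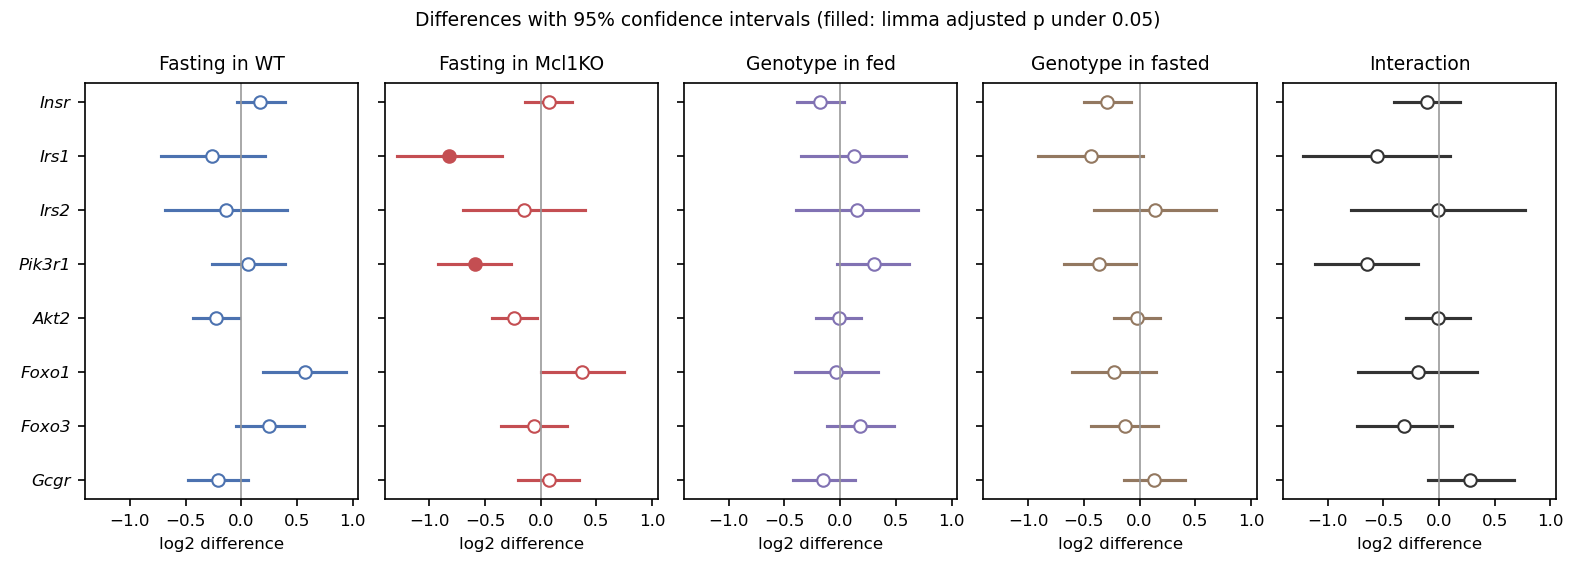
Log2 differences (horizontal axis) of the 8 members in the 5 contrasts, with 95% intervals from the limma model and filled points where the adjusted p was under 0.05. Filled points are Irs1 (-0.82) and Pik3r1 (-0.59) in the contrast of fasted against fed Mcl1KO livers.

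Around the 8 members, 137 measured genes of both routes were read from lists arranged by role. Fasting called 24 of them in WT livers (10 higher and 14 lower, 17.5%) and 35 in Mcl1KO livers (18 higher and 17 lower, 25.5%), against 6.79% and 14.4% of all probe sets. Genotype called 0 in fed livers, with 16 at an unadjusted p under 0.05, and 10 in fasted livers (5 higher and 5 lower, 7.3%, against 4.99% of all probe sets). The interaction called 0, with 18 at an unadjusted p under 0.05, so a call in 1 genotype alone does not show a different fasting response. The average of both fasting contrasts, added after the values were seen, called 47 (34.3%, against 16.7% of all probe sets). The list with the largest share of its genes called for fasting was that of genes that insulin raises. The calls of Gab1 and Akt1 for fasting in WT, of Ywhaz for fasting in Mcl1KO, and of Ptpn1 and Akap1 between fasted genotypes were lost without fed WT replicates 1 and 2 (adjusted p from 0.0568 to 0.157). Those of Ywhaz and Gadd45a for fasting in Mcl1KO and of Mtor between fasted genotypes were lost without fasted Mcl1KO replicates 3 and 4 (adjusted p from 0.11 to 0.225).

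Among 16 measured genes of the receptor, its other adaptors and its brakes, limma called 3 lower in WT and 2 lower in Mcl1KO fasted livers and none higher, where 3.68% and 6.25% of all probe sets were called lower. Ptprf, a receptor phosphatase that acts on the insulin receptor, fell in both genotypes, by a log2 difference of -0.84 in WT (SE 0.17, adjusted p = 0.00176) and -1.13 in Mcl1KO (SE 0.17, adjusted p = 2.94e-05), with no overlap of the fed and fasted arrays. Ide, the insulin-degrading enzyme, fell by 0.78 in WT livers (adjusted p = 0.000899) and differed by 0.05 in Mcl1KO livers (adjusted p = 0.894), where the fed level of 7.93 ± 0.19 was near that of fasted WT livers, 7.90 ± 0.20. Its genotype difference in fed livers was -0.74 (adjusted p = 0.0683) and its interaction 0.83 (adjusted p = 0.0846), neither of which passed. The adaptor gene Gab1 fell by 0.34 in both genotypes, a call lost in WT without any of 11 arrays (adjusted p up to 0.129) and in Mcl1KO without any of 5 (adjusted p up to 0.0913). In the fasted state Ptpn1, which encodes the phosphatase PTP1B that opposes the receptor, was higher in Mcl1KO than in WT livers (0.50, adjusted p = 0.0467). This call was lost without any 1 of 14 arrays (adjusted p up to 0.128).

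Of 12 phosphoinositide enzyme genes besides Pik3r1, 1 was called for fasting in WT livers (8.33%, against 6.79% of all probe sets). In Mcl1KO livers 0 were called, against 14.4% of all probe sets, and 2 had an unadjusted p under 0.05. Pdpk1, the kinase that activates AKT, rose in WT (0.45, adjusted p = 0.0173). The call was lost without fed WT replicate 4 (adjusted p = 0.0591) and without fasted WT replicate 3 (adjusted p = 0.051). Of 15 genes of AKT kinases, substrates and brakes besides Akt2, 1 was called for fasting in WT and 2 in Mcl1KO livers. These were 6.67% and 13.3%, near the shares of all probe sets. Akt1 fell in WT (-0.48, adjusted p = 0.0273). In Mcl1KO livers Tbc1d4, an AKT substrate, fell (-0.57, adjusted p = 0.00372) and Gsk3a, a kinase that AKT inhibits, rose (0.34, adjusted p = 0.0342). The Akt1 call was lost without any of 5 arrays (adjusted p up to 0.0925) and the Gsk3a call without any of 6 (adjusted p up to 0.0939). Mtor, the kinase that also phosphorylates AKT, was higher in fasted Mcl1KO than in fasted WT livers (0.45, adjusted p = 0.0287), a call lost without fasted WT replicate 4, fasted Mcl1KO replicate 4 or fasted Mcl1KO replicate 5 (adjusted p up to 0.0817).

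Of 10 other FOXO family genes and partners, 2 were called for fasting in WT and 5 in Mcl1KO livers. These were 20% and 50%, against 6.79% and 14.4% of all probe sets. Ppargc1a, the coactivator PGC-1α that works with FOXO1 and is induced by cyclic AMP, rose most. It was at 5.99 ± 0.54 in fed WT and 7.79 ± 0.30 in fasted WT livers (difference 1.80, SE 0.25, adjusted p = 4e-05), and at 6.04 ± 0.55 in fed and 7.69 ± 0.38 in fasted Mcl1KO livers (1.64, SE 0.25, adjusted p = 5.01e-05). Ywhab, a 14-3-3 protein gene, fell in WT (-0.49, adjusted p = 0.0119). In Mcl1KO livers Hnf4a (0.48, adjusted p = 0.0122), Sirt1 (0.47, adjusted p = 0.0206) and the 14-3-3 gene Ywhaz (0.29, adjusted p = 0.0496) rose, and Foxk2 (-0.52, adjusted p = 0.00544) fell. Hnf4a was not called in WT livers, where it went from 8.59 ± 0.14 to 9.02 ± 0.13 with no overlap of the arrays. Its Mcl1KO arrays did overlap. Averaged over both genotypes, Hnf4a (0.45, adjusted p = 0.000861), Foxk2 (-0.40, adjusted p = 0.00223) and Ywhab (-0.40, adjusted p = 0.00135) were called. The Ywhaz call was lost without any of 18 arrays (adjusted p up to 0.143) and the Sirt1 call without any of 4 (adjusted p up to 0.0765).

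The list of 15 genes that insulin lowers through FOXO gave 4 higher and 0 lower in WT livers, against 3.1% of all probe sets called higher. Pck1, the gluconeogenic enzyme gene, rose by 0.65 (SE 0.10, adjusted p = 8.9e-05), Bnip3, a mitophagy receptor gene, by 0.78 (SE 0.14, adjusted p = 0.00108) and Ccng2, a cyclin G gene, by 0.62 (SE 0.13, adjusted p = 0.00269). Klf15 rose by 0.48 (adjusted p = 0.0109). Mcl1KO livers gave 5 higher and 2 lower, against 8.2% and 6.25% of all probe sets. Pdk4, the kinase that shuts pyruvate out of the citric acid cycle, rose by 2.93 (SE 0.41, adjusted p = 1.49e-05), Igfbp1 by 1.56 (SE 0.45, adjusted p = 0.0183) and Bnip3 by 1.22 (SE 0.14, adjusted p = 1.94e-06), while Ccng2 (1.01, adjusted p = 4.44e-06) and Mttp, a gene of lipoprotein assembly (0.42, adjusted p = 0.0072), were the other calls. Without fed Mcl1KO replicate 4 the Igfbp1 call was lost (1.28, adjusted p = 0.0641). Bcl6, a repressor of lipid genes (-1.60, adjusted p = 0.0281), and Gadd45a, a stress-response gene (-1.03, adjusted p = 0.0377), fell, calls lost without any of 6 and any of 7 arrays (adjusted p up to 0.105 and 0.136). Igfbp1 (8.11 ± 1.26 to 9.28 ± 0.72), Bcl6 (5.85 ± 0.67 to 4.69 ± 0.55) and Gadd45a (6.12 ± 0.59 to 5.53 ± 0.58) moved the same way in WT livers without a call. So did Pdk4 (4.33 ± 0.14 to 5.14 ± 0.29), with no overlap of its WT arrays. Pck1 (11.22 ± 0.12 to 11.35 ± 0.16) and Klf15 (7.33 ± 0.15 to 7.34 ± 0.26) were not called in Mcl1KO livers. Averaged over both genotypes, Pdk4 (1.87, adjusted p = 3.37e-05), Igfbp1 (1.37, adjusted p = 0.00296), Bcl6 (-1.38, adjusted p = 0.00598) and Gadd45a (-0.81, adjusted p = 0.0169) were called. The interaction called 0 genes of the list. The median difference of the list was 0.14 in WT and 0.19 in Mcl1KO livers. G6pc, a textbook FOXO1 target, was at 10.19 ± 0.44, 9.91 ± 0.42, 10.16 ± 0.27 and 10.03 ± 0.36 in fed WT, fasted WT, fed Mcl1KO and fasted Mcl1KO livers. It lies outside the naming rule and was chosen after its values were seen.

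Genes that insulin raises showed the widest fall. Of 11 measured genes on this list, 8 fell and 1 rose in each genotype, 81.8% called, with a median difference of -1.87 in WT and -2.0 in Mcl1KO livers, where 3.68% and 6.25% of all probe sets were called lower. Fasn, the fatty acid synthase, went from 8.99 ± 0.44 to 6.27 ± 0.45 in WT and from 8.66 ± 0.15 to 6.45 ± 0.66 in Mcl1KO livers, with no overlap of fed and fasted arrays. Scd1, the stearoyl-CoA desaturase, fell by 2.80 in WT (SE 0.18, adjusted p = 6.57e-10) and by 2.78 in Mcl1KO (SE 0.18, adjusted p = 4.85e-10), from 11.59 ± 0.17 to 8.79 ± 0.42 and from 11.31 ± 0.17 to 8.53 ± 0.41. Elovl6, a fatty acid elongase, fell by 2.72 and 2.76 (SE 0.19, adjusted p = 2.59e-09 and 1.06e-09), and Thrsp, a lipogenic regulator, by 2.75 and 3.39 (SE 0.30, adjusted p = 1.02e-06 and 2.24e-08). The gene that rose was Insig2, an anchor of the sterol sensor. Insulin is known to lower its liver transcript, so the list's name does not hold for it, and among the other 10 genes 8 fell and none rose. Insig2 rose by 2.28 in WT (adjusted p = 7.15e-07) and by 2.67 in Mcl1KO livers (adjusted p = 3.28e-08). In fasted livers Insig2 was higher in Mcl1KO than in WT (0.96, adjusted p = 0.0215) and Acly, which makes cytosolic acetyl-CoA, was lower (-0.58, adjusted p = 0.0327). These genotype calls were lost without any of 4 arrays for Insig2 (adjusted p up to 0.0672) and any of 6 for Acly (adjusted p up to 0.106).

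**Figure D4:**
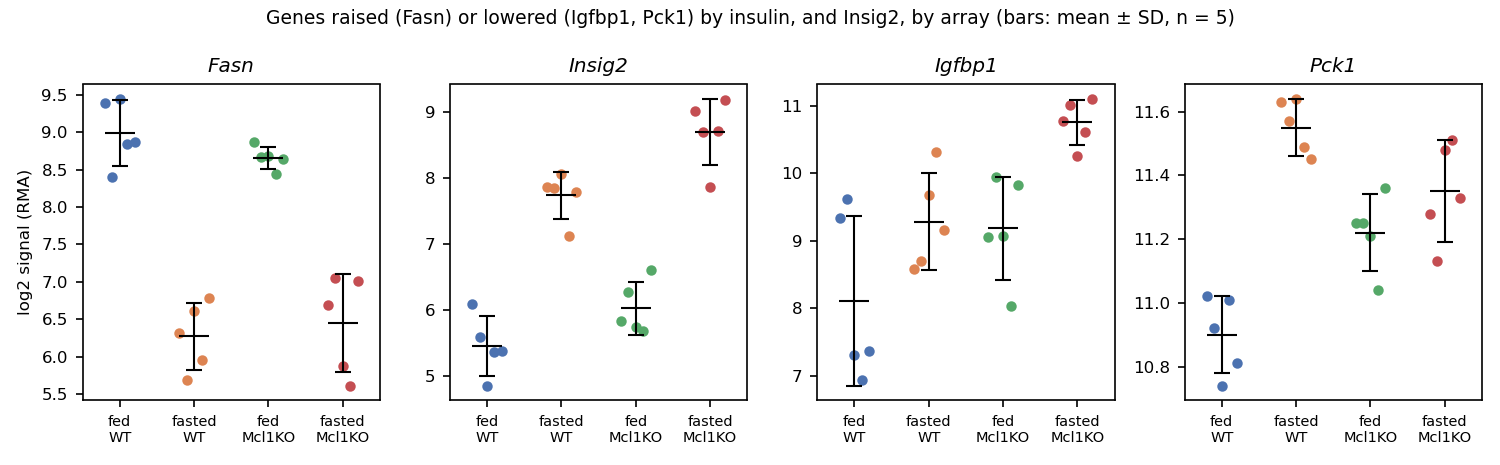
Log2 signal (vertical axes) of Fasn, Insig2, Igfbp1 and Pck1 in each liver, by group, with points as mice and bars as mean ± SD (n = 5 per group). Fasn lies at 8.4 or above in all fed livers and at 7.05 or below in all fasted livers, while fed WT livers split in Igfbp1 into 2 at 9.33 and above and 3 at 7.36 and below.

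On the glucagon side, of 28 measured genes of other receptors, G proteins, adenylyl cyclases and phosphodiesterases, 1 was called for fasting in each genotype, or 3.57%, against 6.79% of all probe sets in WT and 14.4% in Mcl1KO livers. This was Adra1b, the hepatic α1B adrenergic receptor, which fell by 1.07 in WT (SE 0.14, adjusted p = 1.45e-05) and by 1.97 in Mcl1KO livers (SE 0.14, adjusted p = 1.06e-09). Its signals in fasted Mcl1KO livers, 4.06 to 5.15, all lay below those in fasted WT livers, 5.26 to 5.63 (-0.77, SE 0.14, adjusted p = 0.00277), and the interaction was -0.90 with an adjusted p of 0.0607. Of 19 genes of protein kinase A, CREB and their coactivators, 1 was called for fasting in WT and 4 in Mcl1KO livers. These were 5.26% and 21.1%, against the same 6.79% and 14.4%. Crtc2, a CREB coactivator that glucagon activates, rose by 0.58 in WT (adjusted p = 0.00472) and by 0.46 in Mcl1KO livers (adjusted p = 0.0138). The latter call was lost without fasted Mcl1KO replicate 1 (adjusted p = 0.0534). Mcl1KO livers also had higher Sik3 (0.55, adjusted p = 0.0025), Prkar1a (0.52, adjusted p = 0.000451) and Sik2 (0.50, adjusted p = 0.00471) when fasted. Sik3 (0.47, adjusted p = 0.000284) and Sik2 (0.44, adjusted p = 0.000514) were also called higher in the average of both fasting contrasts. Prkar1a, a regulatory subunit that holds protein kinase A inactive, was higher in fasted Mcl1KO than in fasted WT livers (0.55, SE 0.10, adjusted p = 0.00277), and Akap1, which anchors the kinase to mitochondria, was lower (-0.50, adjusted p = 0.0461, lost without any of 15 arrays, adjusted p up to 0.137).

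Of 11 genes known to be induced by cyclic AMP, 2 rose in WT livers and 3 rose and 2 fell in Mcl1KO livers, where 3.1% of all probe sets were called higher in WT, and 8.2% higher and 6.25% lower in Mcl1KO. Tat rose by 0.69 in WT (adjusted p = 0.000106) and 0.65 in Mcl1KO (adjusted p = 8.98e-05), and Cps1, the entry enzyme of the urea cycle, by 0.47 (adjusted p = 0.000574) and 0.54 (adjusted p = 4.67e-05). Per1, a clock gene with a cyclic AMP response element, rose in Mcl1KO livers (1.03, adjusted p = 0.00155). In WT livers it went from 5.81 ± 0.35 to 6.39 ± 0.34 without a call, and the average of both fasting contrasts was called (0.81, adjusted p = 0.000437). Nr4a1 fell by 2.0 in Mcl1KO livers (SE 0.54, adjusted p = 0.0128), where fed livers ranged from 4.59 to 8.33 and fasted ones from 4.34 to 5.16. Without fed Mcl1KO replicate 5 that call was lost (-1.62, adjusted p = 0.051). Ppp1r3c, a glycogen-targeting subunit of protein phosphatase 1, fell by 1.56 in Mcl1KO livers (SE 0.32, adjusted p = 0.00118) and was lower in fasted Mcl1KO than in fasted WT livers (-1.92, SE 0.32, adjusted p = 0.00174). Fasted Mcl1KO replicate 3, at 6.78, overlapped the WT range of 6.60 to 8.23. In the same comparison Pdk4 was higher in Mcl1KO (2.19, SE 0.41, adjusted p = 0.0035) and Klf15, a factor that promotes amino acid use in fasting, was lower (-0.58, SE 0.12, adjusted p = 0.00588), both with no overlap of the groups. Without fasted Mcl1KO replicates 3 and 4 the Pdk4 difference was 3.0 (adjusted p = 4.78e-06). The spread of Pdk4 in fasted Mcl1KO livers was 1.23, against 0.14 to 0.83 in the other groups.

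**Figure D5:**
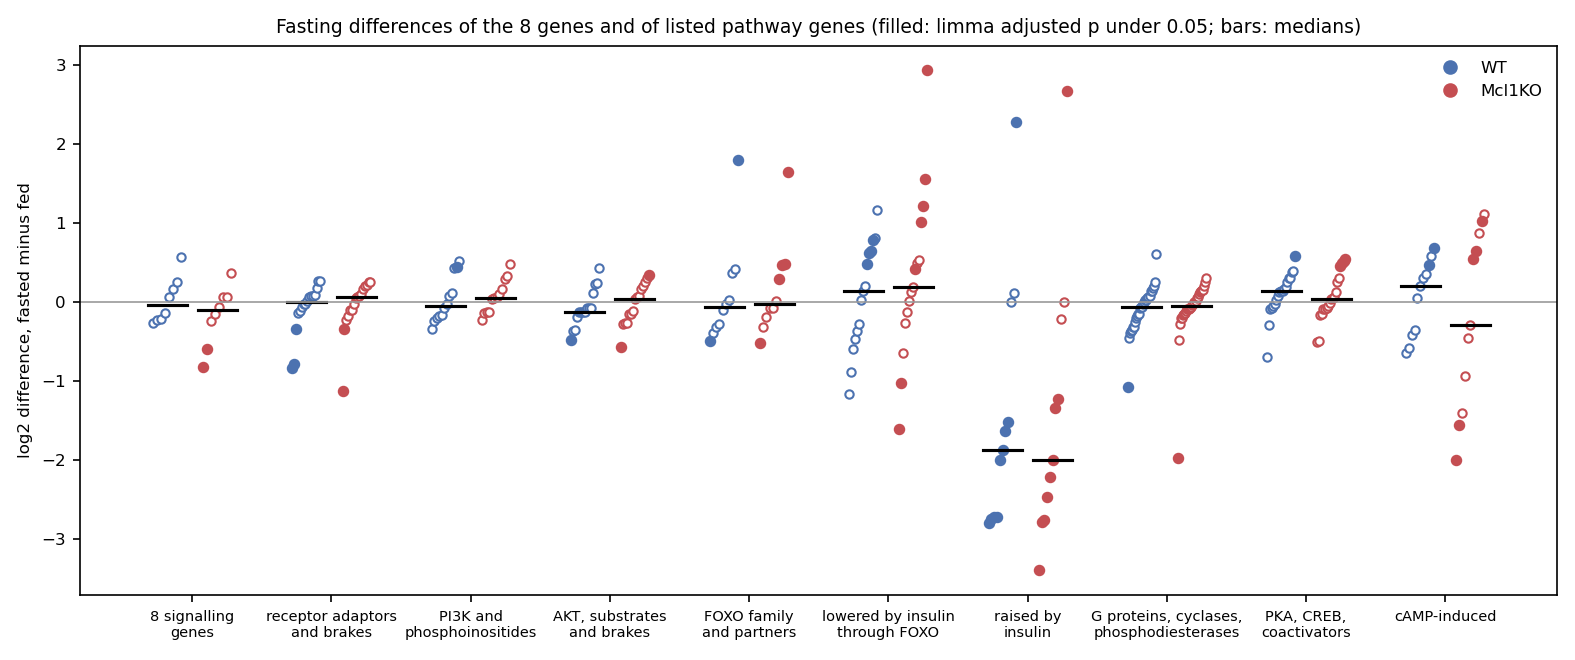
Log2 difference of fasted minus fed livers (vertical axis) for the 8 members and for each gene of the lists (horizontal axis), in WT and Mcl1KO livers, with filled points where limma's adjusted p was under 0.05 and bars at list medians. The genes raised by insulin have medians of -1.87 and -2.0, and most points of the receptor, kinase and G protein lists lie near 0 and are open.

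The genes whose log2 signals followed the 2 called members most closely over the 20 arrays were taken by Pearson's r, as a description over arrays that share groups and normalisation. For Irs1 they were Nr5a2 (r = 0.871), Rdh7 (r = 0.838) and Ppat (r = 0.81). For Pik3r1 they were Sema4g (r = 0.852), Gpc4 (r = 0.839) and Per2 (r = 0.803). The 3 genes most like Pik3r1 were lower in fasted than in fed Mcl1KO livers, by -0.94, -0.77 and -0.92 (adjusted p = 0.000696, 0.00281 and 0.00103), and differed by -0.04, -0.16 and -0.18 in WT livers (adjusted p = 0.955, 0.739 and 0.718). Those most like Irs1 did not pass in Mcl1KO livers (Nr5a2 -0.45, Rdh7 -0.24 and Ppat -0.41, with adjusted p = 0.0517, 0.118 and 0.109). All 6 were chosen for likeness to a member, so their direction follows from that choice.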

How the data were processed

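Liver RNA was isolated with Trizol and labelled with the GeneChip WT PLUS kit, per the labels' protocols. The authors deposited 1 table of log2 signals for 22206 probe sets on 20 arrays, made, per the submitters' processing notes, by RMA (background correction, quantile normalisation and probe set summary). The submitters' processing notes also name Partek 7.0. The log base is not stated and was taken as 2, since values ran from 1.34 to 12.56. Array medians were 3.35 to 3.47. A shift shared by most transcripts is not visible after quantile normalisation. Platform annotation gave 1 symbol to 19572 probe sets and none to 2634. Signal levels of different genes are not compared as abundance, since probe sets differ in response.

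Differences were fitted with limma 3.58.1 in R 4.3.3 (lmFit and eBayes, prior df 6.95), with 1 mean per group over all 20 arrays. P-values were adjusted by Benjamini-Hochberg over all 22206 probe sets and called under 0.05. Unless left-out arrays or another setting are named, every adjusted p and SE in the text comes from this fit. It had n = 5 mice per group, and the number of arrays limits its precision. The contrasts were fasted minus fed in each genotype, Mcl1KO minus WT in each feeding state, and their interaction. The average of the 2 fasting contrasts was added after the values were seen. The members and gene lists were chosen with earlier results of these data known. Named genes were the 8 members, Mcl1, up to 3 called genes per list, contrast and direction (where a list had no call, up to 2 by size, of which the text gives only some), and the 3 genes most like each called member. Other genes named are Irs2-related genes, G6pc and the genes that complete a count, picked after their values were seen. Promoters and chromosomes came from RefSeq (GRCm38.p6). Replicate numbers were not used to pair mice. Alternatives were other scalings, moderation, weights, filters, a minimum fold, a replicate block and left-out arrays. Plots used Python 3.11.15 and matplotlib 3.10.9.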

Additional observations from a re-analysis of the deposited data

Results flagged for a closer look

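In all 10 values of members and named pathway genes lay far from the other 4 livers of their group by Dixon's test, out of 240 gene and group combinations (4.17%, where chance gives about 1 in 20). Among the members, Irs1 in fed WT replicate 1 was at 3.28, where the rest of that group lay at 4.28 to 4.58. In the same liver Ide was at 8.11, against 8.74 to 8.88.

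In fasted WT livers Mtor was at 6.01 in replicate 4 against 6.27 to 6.30, Hnf4a at 9.24 in the same liver against 8.92 to 9.01, Ywhab at 6.58 in replicate 1 against 6.31 to 6.32, and Bcl6 at 5.66 in replicate 2 against 4.30 to 4.54. In fed Mcl1KO livers replicate 2 had Ppargc1a at 7.01 against 5.67 to 5.95 and Apoc3 at 11.02 against 10.84 to 10.86. In fasted Mcl1KO livers Ywhaz was at 8.49 in replicate 5 against 8.85 to 8.98, and Klf15 at 6.88 in replicate 2 against 7.35 to 7.50.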

How the results depend on the processing

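Of 48 member results (8 genes in 6 contrasts), 26 kept their direction and their side of the threshold under every alternative run. A minimum fold of 1.2 (limma's treat) left 0 members called for fasting in Mcl1KO and 0 for the average of both genotypes. For fasting in WT, 1 member was called with trend and robust moderation, with the filter on dim probe sets and without fed WT replicates 1 and 2, which was Foxo1 each time. For genotype in fasted livers, 1 (Insr) was called without fasted Mcl1KO replicates 3 and 4. Leaving out single arrays gave 0 to 1, 1 to 2 and 0 to 1 members for fasting in WT, fasting in Mcl1KO and genotype in fasted livers. The cause was not tested.

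The minimum fold left 15 of 137 pathway genes called for fasting in WT, 20 for fasting in Mcl1KO and 2 for genotype in fasted livers. That last count was 18 with the dim filter, 24 without fasted Mcl1KO replicates 3 and 4, and 6 to 18 without single arrays. For genotype in fed livers, 1 gene was called under quantile normalisation, trend and robust moderation and array weights and without either pair, and 0 to 1 without single arrays. For the interaction, quantile normalisation, array weights and the dim filter gave 1 each, trend and robust moderation 2, omission of fasted Mcl1KO replicates 3 and 4 gave 8, and single arrays 0 to 5. Of 69 called pathway results, 36 kept their call throughout, 33 lost it at some setting and 0 reversed.

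None of the member values that changed sign was called. Without fasted Mcl1KO replicates 3 and 4, Insr for fasting in Mcl1KO was -0.043, Irs2 0.087, Foxo3 0.059, Irs2 interaction 0.224, Akt2 genotype in fasted 0.029 and Akt2 interaction 0.044. The Foxo3 interaction kept its sign at -0.193, and Akap1 for genotype in fasted livers was -0.762. Without fed WT replicates 1 and 2, Irs1 genotype in fed was -0.084, Irs2 fasting in WT 0.345, Irs2 averaged fasting 0.099, Foxo1 genotype in fed 0.22 and Akt2 genotype in fed 0.003. Median centring gave 0.028 for the Irs2 interaction, 0.011 for Akt2 genotype in fasted and 0.029 for the Akt2 interaction. Without single arrays the ranges of values that changed sign were, for fasting in Mcl1KO, -0.007 to 0.12 (Insr), -0.26 to 0.035 (Irs2), -0.15 to 0.034 (Foxo3) and -0.019 to 0.13 (Gcgr). For fasting in WT they were -0.28 to 0.10 (Irs2) and -0.026 to 0.12 (Pik3r1). For genotype in fed they were -0.11 to 0.22 (Irs1), -0.031 to 0.39 (Irs2), -0.12 to 0.10 (Foxo1) and -0.049 to 0.031 (Akt2). For Akt2 genotype in fasted they were -0.072 to 0.018, and for the interaction -0.25 to 0.17 (Irs2) and -0.057 to 0.033 (Akt2).

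The replicate numbers showed no pairing: over 30 same-number pairs the correlation of deviations had a median of -0.02 (-0.19 to 0.17), with 1 pair over 0.1 and 3 arrays best matched by their own number. With the replicate block 0 members were called for fasting in WT and 2 in Mcl1KO (Irs1 adjusted p = 0.0233, Pik3r1 adjusted p = 0.00909), and 23 and 34 pathway genes. The alternative of a second probe set per gene was not run, since each member had 1. The omission of 2 pairs of arrays was chosen after seeing the data. With 5 mice per group, the 95% intervals of the members in single contrasts limit what can be told from no difference.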
